A study of Caenorhabditis elegans with 6 samples.

Results

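The genes described here make glycerol, carry inositol or set the response to osmotic stress in Caenorhabditis elegans. They are gpdh-1, gpdh-2, hmit-1.1, hmit-1.2, hmit-1.3, osm-7, osm-8, osm-11 and lea-1, and they were found by matching the array's sequence names and accessions to gene symbols. All 9 genes had a probe, of 20436 genes with a probe in all, and together they had 13 probes. RNA came from whole young adults that had not begun to reproduce. WTN2, labelled wild type, was compared with RB1035, a strain mutant for flcn-1 that had been crossed back to WTN2 8 times. Folliculin, a tumour suppressor in humans, is encoded in the worm by flcn-1. Each strain had 3 samples, called biological triplicates in the design text, and each sample was hybridised to its own Cy3 array. Both strains were grown on NGM agar with OP50 bacteria, and the labels name no osmotic treatment. RB1035 is a single strain with a single flcn-1 allele, so the allele and anything else the strain carries cannot be told apart.

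Worms in a hypertonic medium lose water and then build up glycerol as an organic osmolyte. Glycerol-3-phosphate dehydrogenase turns a glycolytic intermediate into glycerol-3-phosphate, and a phosphatase then releases glycerol. Transcription of gpdh-1 is strongly induced by hypertonicity in the intestine and the hypodermis, and it also goes up when certain secreted hypodermal proteins or cuticle collagens are lost.

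Levels are log2 of the scanner's processed signal minus the 75th percentile of the array, so 0 is the signal of a fairly bright probe, and differences are RB1035 minus WTN2. A level compares arrays for 1 probe and does not rank genes against each other. Slide 1 held replicate 1 of each strain, and slide 2 held the other 4 arrays. On each array 68.1% to 73.1% of probes stood well above background. The coefficient of variation between copies of a probe was 22.4% and 20.9% on RB1035 replicates 2 and 3, against 8.19% to 10.9% on the others. Transcripts of adults (col-19, vit-2 and vit-6) were well above background on all 6 arrays, while 7 of 10 early embryonic genes were not well above background on at least 3 arrays. The level of flcn-1 differed by -0.11 (limma adjusted p = 0.901), and the sources used here do not place the lesion relative to the probe, so this does not check the strain labels.

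Of the 9 genes, 8 were well above background on all 6 arrays. The exception was osm-8. Of the 8, 7 were higher and 1 was lower in RB1035, with a median difference of 0.65 against 0 over all 19817 features tested, of which 50.3% were higher. None passed the test across all features (limma, Benjamini-Hochberg adjusted p of 0.05), which 0.101% of features did. At an unadjusted p under 0.05 the count was 1 of 8, gpdh-1, against 7.24% of all features. The arrays of the strains did not overlap, with RB1035 higher, for gpdh-1 alone, against 5.22% of all features, and for none of the 8 with RB1035 lower, against 6.74%. In whole animals, more RNA per cell and more cells that express a gene cannot be told apart.

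**Figure D1:**
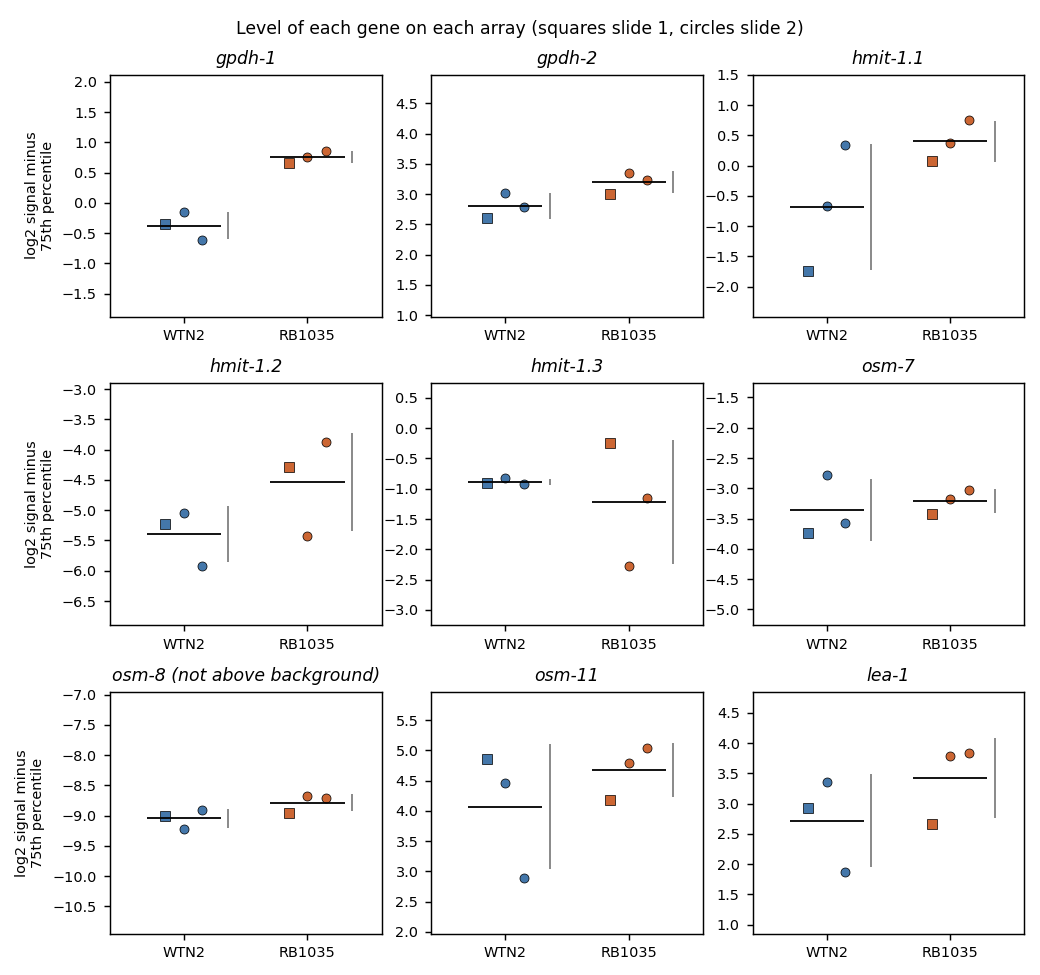
Level of each of the 9 genes by its brightest probe on each array (y axis, log2 signal minus the array's 75th percentile), with squares for slide 1, circles for slide 2, horizontal lines for the mean and grey bars for 1 SD (n = 3). Only gpdh-1 among the detected genes has its RB1035 arrays (0.66 to 0.85) all above its WTN2 arrays (-0.61 to -0.16), and osm-8 lies near -9 on every array, where it is not well above background.

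The gene gpdh-1 encodes the osmotically induced glycerol-3-phosphate dehydrogenase. It was measured by a single probe, so no other probe could be compared. On WTN2 arrays 1, 2 and 3 its level was -0.35, -0.16 and -0.61, and on RB1035 arrays 1, 2 and 3 it was 0.66, 0.75 and 0.85. The RB1035 arrays were thus all higher and lay close to each other. The processed signals before scaling were 1330, 1483 and 1411 in WTN2 and 3830, 3611 and 3381 in RB1035. The 75th percentile of the arrays ranged from 1655 to 2154 in WTN2 and from 1874 to 2425 in RB1035, so the unscaled signals also carry the brightness of the arrays. After scaling, the means were -0.37 ± 0.23 and 0.75 ± 0.10 (SD, n = 3 each). The difference was 1.13 ± 0.26 (SE, limma), or 2.18-fold with a 95% confidence interval from 1.44-fold to 3.31-fold. Of all features 82 had a smaller p than gpdh-1 (unadjusted p = 0.00236), and its adjusted p in limma was 0.565. Slide 1 gave a difference of 1.01 and slide 2 one of 1.19. It stayed between 1.01 and 1.24 when any 1 array was left out, so neither a slide nor an array decided its size.

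The second dehydrogenase gene, gpdh-2, is the paralogue that is expressed without osmotic stress. By its brighter probe the level was 2.60, 3.02 and 2.79 in WTN2 and 3.00, 3.35 and 3.23 in RB1035. The lowest RB1035 array lay just under the highest WTN2 array. The difference was 0.39 ± 0.27 (SE), or 1.31-fold (95% confidence interval 0.858 to 2.00; limma adjusted p = 0.668), and it was 0.40 on slide 1 and 0.39 on slide 2. The other gpdh-2 probe gave 0.17, with levels from 1.82 to 2.20 in WTN2 and from 1.93 to 2.36 in RB1035. Both probes overlapped between strains.

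Whether the paralogues differed unequally was asked of their log2 ratio within each array, which does not depend on how arrays are scaled. The level of gpdh-1 minus that of gpdh-2 was -2.95, -3.18 and -3.40 on the WTN2 arrays and -2.34, -2.60 and -2.38 on the RB1035 arrays. The groups did not overlap, and the ratio shifted towards gpdh-1 by 0.74 (exact two-sided permutation p = 0.1, the smallest that 3 against 3 allows). Adjusted over the 3 pairs of paralogues compared, p was 0.3. The shift was 0.61 on slide 1 and 0.80 on slide 2, and it was 0.85 when the mean of both gpdh-2 probes was used.

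**Figure D2:**
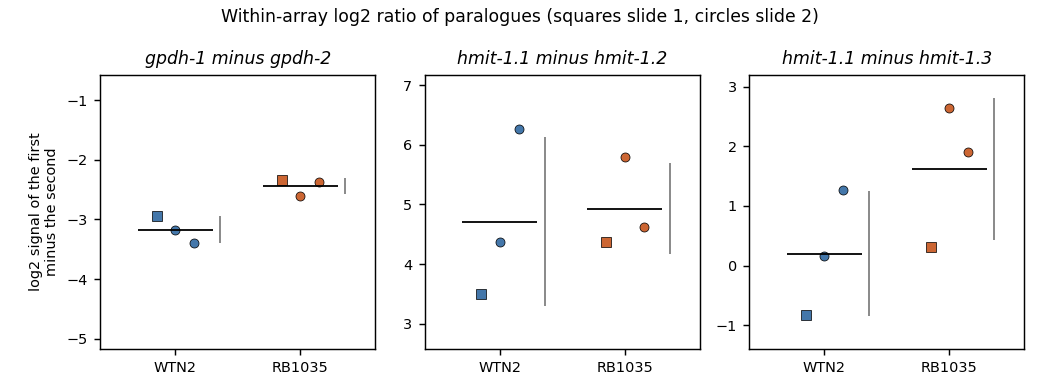
Log2 signal of the first gene minus that of the second on each array (y axis), for 3 pairs of paralogues, with squares for slide 1, circles for slide 2, lines for the mean and grey bars for 1 SD (n = 3). The gpdh-1 to gpdh-2 ratio parts the strains (-3.40 to -2.95 against -2.60 to -2.34), while both hmit ratios overlap.

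The genes on either side of gpdh-1 in glycerol metabolism were followed through a list of 10 enzymes, drawn up with earlier results of these data known. T25G3.4 was not matched to a probe and is not analysed here. Of the other 9, 8 were higher and 1 was lower, with a median of 0.96. The arrays of RB1035 lay above all those of WTN2 for 5 of 9 (5.22% of all features). These 5 also had an unadjusted p under 0.05 by limma. Of all features 2.9% had such a p with RB1035 higher, and 7.24% in either direction. None passed after adjustment over all features. Besides gpdh-1 the 5 were pgph-1, pgph-2, pgph-3 and R11F4.1.

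The 3 pgph genes encode phosphatases of the family that releases glycerol from glycerol-3-phosphate. The level of pgph-1 was 0.61, 0.97 and 0.73 in WTN2 and 1.79, 2.06 and 2.00 in RB1035. That of pgph-3 was 0.34, 1.00 and 0.76 in WTN2 and 1.80, 1.61 and 1.94 in RB1035. That of pgph-2 was more scattered, at -0.11, 1.16 and 1.68 in WTN2 and 1.94, 1.96 and 3.34 in RB1035. All 3 genes had every RB1035 array above every WTN2 array. The difference was 1.18 ± 0.26 for pgph-1 (SE; limma adjusted p = 0.486), 1.08 ± 0.28 for pgph-3 (adjusted p = 0.65) and 1.50 ± 0.54 for pgph-2 (adjusted p = 0.65). Without WTN2 replicate 1, the lowest array, pgph-2 gave 0.99.

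R11F4.1 is the predicted glycerol kinase gene, whose product turns glycerol back into glycerol-3-phosphate. Its level was 1.01, 0.98 and 0.92 in WTN2 and 1.83, 2.19 and 1.78 in RB1035. The WTN2 arrays were nearly equal and all lower than those of RB1035. The difference was 0.96 ± 0.26 (SE; limma adjusted p = 0.65). No difference between R11F4.1 and the pgph genes was tested.

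Single probes were then examined for these enzymes. The genes pgph-1, pgph-2, pgph-3 and R11F4.1 have 10 probes, and for all 10 the RB1035 arrays lay above all WTN2 arrays. That held for 5.21% of the 31224 probes tested. These genes were picked because their brightest probes separated the strains, and their other probes were read on the same RNA and arrays. The 10 probes are thus no independent support. The differences of the 10 probes ranged from 0.63 to 2.02. The pgph genes resemble each other and all lie on chromosome V, and since probe sequences were not used here, how far a probe of one also reports another was not tested. The 16 probes of gpdh-2, tpi-1, aldo-1 and aldo-2, genes already known to overlap by their brightest probe, all overlapped between strains. By their brightest probes the glycolytic genes on the list had smaller differences. The aldolase gene aldo-1 differed by 0.64, its paralogue aldo-2 by 0.37 and the triosephosphate isomerase gene tpi-1 by -0.052 (limma adjusted p = 0.652, 0.725 and 0.95). On slide 1 both aldolase genes were lower in RB1035, at -0.076 and -0.57, and the sign of tpi-1 turned to 0.11 with the mean of its probes.

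**Figure D3:**
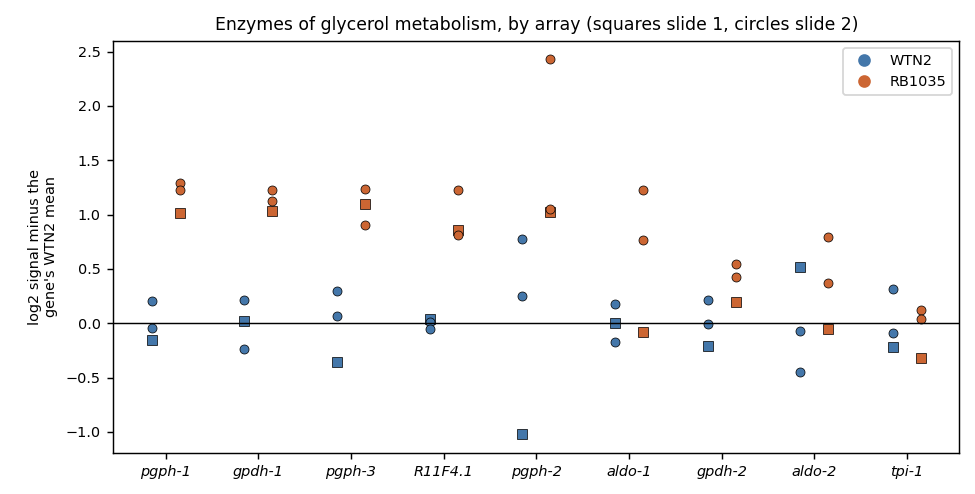
Level of 9 genes of glycerol metabolism on each array as the log2 difference from the gene's WTN2 mean (y axis), ordered by the limma p, with squares for slide 1 and circles for slide 2. For pgph-1, gpdh-1, pgph-3, R11F4.1 and pgph-2 all RB1035 points lie above all WTN2 points, and for aldo-1, gpdh-2, aldo-2 and tpi-1 they overlap.

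The hmit genes encode transporters that carry myo-inositol, another organic osmolyte, into cells together with protons. On chromosome V, hmit-1.1 is followed directly by hmit-1.2 in the gene order of assembly WBcel235, while hmit-1.3 lies on chromosome III. The level of hmit-1.1 was -1.74, -0.67 and 0.34 in WTN2 and 0.077, 0.37 and 0.75 in RB1035. WTN2 replicate 3 lay within the range of the RB1035 arrays, and WTN2 replicate 1 lay far below all others. The difference was 1.09 ± 0.50 (SE), or 2.13-fold (95% confidence interval 0.963 to 4.70; limma adjusted p = 0.65). It was 1.81 on slide 1 and 0.73 on slide 2, 0.56 without WTN2 replicate 1 and 1.61 without WTN2 replicate 3, so its size rests on the WTN2 arrays.

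The probe of hmit-1.2 was dim, with processed signals from 35.5 to 128. Its level was -5.23, -5.05 and -5.92 in WTN2 and -4.29, -5.43 and -3.88 in RB1035. RB1035 replicate 2 lay among the WTN2 arrays. The difference was 0.87 ± 0.44 (SE), or 1.83-fold (95% confidence interval 0.903 to 3.69; limma adjusted p = 0.65), with 0.94 on slide 1 and 0.83 on slide 2. It was 1.32 without RB1035 replicate 2 and 0.54 without RB1035 replicate 3.

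The level of hmit-1.3 was -0.90, -0.83 and -0.92 in WTN2, where the arrays were nearly equal, and -0.24, -2.27 and -1.15 in RB1035. The RB1035 arrays lay on both sides of WTN2, with an SD of 1.02 against 0.049. The difference was -0.33 ± 0.47 (SE), or 0.793-fold (95% confidence interval 0.374 to 1.68; limma adjusted p = 0.803). The direction was opposite on the slides, at 0.67 on slide 1 and -0.83 on slide 2, and it turned to 0.19 without RB1035 replicate 2. The RB1035 arrays on slide 2 were also those with the larger variation between copies of a probe, whose part in the result was not tested.

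The transporter genes were also set against each other within each array. The level of hmit-1.1 minus that of hmit-1.2 was 3.49, 4.37 and 6.27 in WTN2 and 4.36, 5.80 and 4.62 in RB1035, a shift of 0.22 (exact two-sided permutation p = 0.9, adjusted over the 3 pairs 0.9). These ratios overlap widely. The level of hmit-1.1 minus that of hmit-1.3 was -0.83, 0.15 and 1.27 in WTN2 and 0.32, 2.64 and 1.90 in RB1035. The shift was 1.42 (exact two-sided permutation p = 0.2, adjusted 0.3), and RB1035 replicate 1 lay among the WTN2 arrays. Over the 6 arrays hmit-1.1 and hmit-1.2 correlated only weakly (Pearson's r of 0.25), although they are neighbours. The arrays share their strains and slides.

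**Figure D4:**
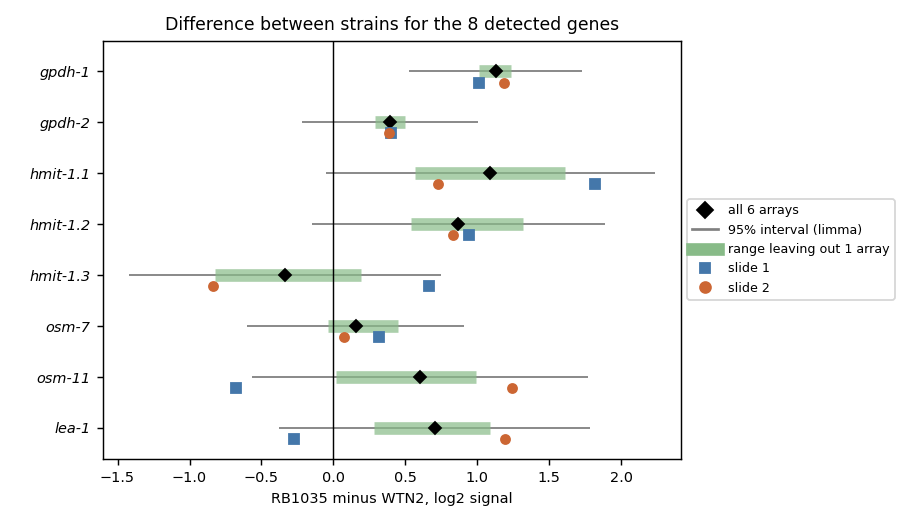
RB1035 minus WTN2 (x axis, log2 signal) for the 8 detected genes, with diamonds for all 6 arrays, grey lines for the 95% interval from limma, green bands for the range when 1 array is left out, blue squares for slide 1 and orange circles for slide 2. The interval of gpdh-1 alone (0.53 to 1.73) does not reach 0, and the slides have opposite signs for hmit-1.3, osm-11 and lea-1.

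The osm-7, osm-8 and osm-11 genes act upstream of the glycerol response. The proteins OSM-7 and OSM-11 are secreted and also serve as co-ligands of Notch receptors, and OSM-8 is a mucin-like secreted protein of the hypodermis. Loss of any of these genes raises glycerol and makes worms resistant to hypertonic medium. By their brightest probes osm-7 differed by 0.15 and osm-11 by 0.60, with intervals that include lower as well as higher levels in RB1035. The third gene, osm-8, was not detected. Whether these genes have a part in the difference of gpdh-1 was not tested.

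The level of osm-7 was -3.74, -2.78 and -3.57 in WTN2 and -3.43, -3.18 and -3.02 in RB1035. The RB1035 arrays lay within the range of the WTN2 arrays. The difference was 0.15 ± 0.33 (SE), or 1.11-fold (95% confidence interval 0.661 to 1.87; limma adjusted p = 0.874), and without WTN2 replicate 1 it turned to -0.036. The single probe of osm-8 was at background level on all 6 arrays, with processed signals from 2.78 to 5.22, so no fold is given.

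The 3 probes of osm-11 disagreed. By the brightest the level was 4.85, 4.46 and 2.90 in WTN2 and 4.17, 4.80 and 5.04 in RB1035. WTN2 replicate 3 was the lowest array, and the other 5 lay close together. The difference was 0.60 ± 0.51 (SE), or 1.52-fold (95% confidence interval 0.674 to 3.41; limma adjusted p = 0.699), and it was 0.015 without WTN2 replicate 3. On slide 1 it was -0.67 and on slide 2 1.24. The second probe gave the opposite direction, -0.46, with 4.75, 3.42 and 1.85 in WTN2 and 3.05, 1.97 and 3.63 in RB1035. The third gave 1.52, with 3.90, 3.59 and -0.90 in WTN2 and 3.38, 4.06 and 3.72 in RB1035. By all 3 probes WTN2 replicate 3 was the lowest array, and by the third probe it stood far below the rest. No probe of osm-11 separated the strains.

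The gene lea-1 encodes a late embryogenesis abundant protein, one of a family that protects cells as they dry out. By its brighter probe the level was 2.93, 3.36 and 1.87 in WTN2 and 2.66, 3.78 and 3.83 in RB1035. The strains overlapped, since RB1035 replicate 1 lay below 2 WTN2 arrays. The difference was 0.70 ± 0.47 (SE), or 1.63-fold (95% confidence interval 0.770 to 3.44; limma adjusted p = 0.665). It was -0.27 on slide 1, 1.19 on slide 2 and 0.28 without WTN2 replicate 3. The other lea-1 probe gave 0.78, with the 6 arrays in the same order, from 1.54 to 2.58 in WTN2 and from 2.09 to 3.38 in RB1035.

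**Figure D5:**
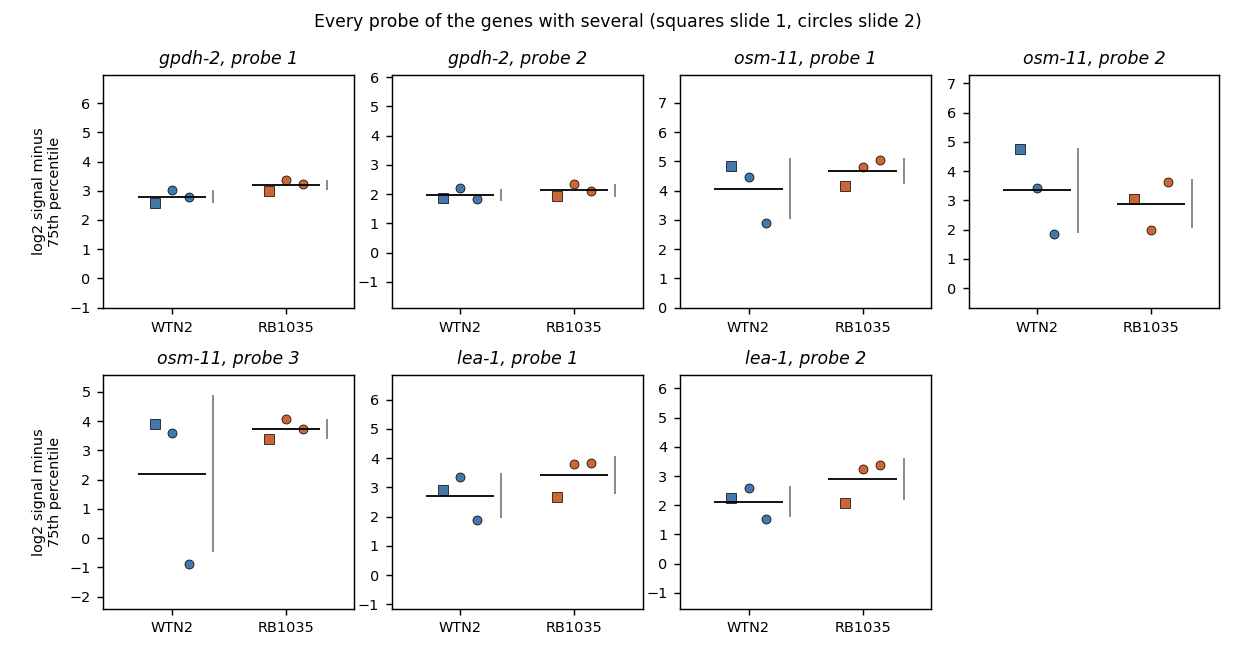
Level on each array (y axis, log2 signal minus the array's 75th percentile) for each probe of gpdh-2, osm-11 and lea-1, numbered from the brightest in WTN2, with squares for slide 1, circles for slide 2, lines for the mean and grey bars for 1 SD (n = 3). The osm-11 probes disagree in direction (0.60, -0.46 and 1.52), and WTN2 replicate 3 is the lowest array for each of them.

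Some arrays were the lowest or the highest for several of the 8 genes. WTN2 replicate 3 was the lowest array for 4 of them (gpdh-1, hmit-1.2, osm-11 and lea-1) and WTN2 replicate 1 for 3 (gpdh-2, hmit-1.1 and osm-7). RB1035 replicate 3 was the highest for 5 of 8. Over the 6 arrays the levels of osm-11 and lea-1 correlated at a Pearson's r of 0.892, and those of gpdh-1 and gpdh-2 at 0.825. Among all pairs of the 8 genes these were the highest values, and the lowest was -0.578, for gpdh-2 and hmit-1.3. The difference had the same sign on both slides for 5 of 8 genes, all higher in RB1035 (gpdh-1, gpdh-2, hmit-1.1, hmit-1.2 and osm-7), as it was for 24.3% of all features. Without WTN2 replicate 3 the median difference of the 8 genes was 0.33.

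Further genes around the osmotic response were examined as lists, also drawn up with earlier results known, and no member of them passed the test over all features. Of 9 genes of inositol transport and metabolism, 8 were higher, with a median of 0.20. After hmit-1.1 and hmit-1.2 the smallest p was that of lfe-2, an inositol trisphosphate kinase gene, which differed by 0.38 (limma adjusted p = 0.681). The inositol phosphate synthase gene inos-1 differed by 0.20 (limma adjusted p = 0.786), though by -0.12 on slide 1. Of 13 tested regulators of osmotic responses, 12 were higher, with a median of 0.29 and none at an unadjusted p under 0.05 (7.24% of all features). On slide 1 alone 7 of the 13 were higher and 6 lower, and on slide 2 11 were higher. The patched-related gene ptr-23, through which osm-8 acts, differed by 0.63, the chloride channel gene clh-3 by 0.73 and the O-GlcNAc transferase gene ogt-1 by 0.52 (limma adjusted p = 0.65, 0.65 and 0.656). The direction of ogt-1 was opposite on slide 1, at -0.033. The GATA factor genes elt-2 and elt-3, needed for gpdh-1 induction, differed by 0.073 and 0.25. Among these genes osr-1 was not well above background on enough arrays to be tested.

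Of 19 tested genes of the Notch pathway, including osm-7 and osm-11, 14 were higher and 5 lower, with a median of 0.34. On slide 1 alone 12 of the 19 were lower. The presenilin gene sel-12 differed by 0.76 (limma adjusted p = 0.65), the effector gene lag-1 by 0.62 and the ligand gene dsl-6 by -0.53. The probe of dsl-6 was dim, with levels from -7.17 to -5.95 over the 6 arrays. The sel-12 arrays did not overlap between strains, at -0.093 to 0.23 in WTN2 and 0.34 to 1.16 in RB1035. Such separation with RB1035 higher held for 5.22% of all features, and slide 1 gave 0.12 for sel-12 where slide 2 gave 1.08. That of lag-1 was -0.22 on slide 1 and 1.05 on slide 2. The remaining genes that carry the osm name mostly belong to sensory cilia and osmotic avoidance rather than to glycerol. Of 6 tested (osm-3 was not analysed here), 4 were higher. Those with the smallest p were osm-12, osm-9 and osm-6, which differed by 0.52, 0.96 and -0.26 (limma adjusted p = 0.653, 0.678 and 0.737). For osm-9 the slides were opposite, at -0.93 on slide 1 and 1.91 on slide 2. The probes of osm-12 and osm-9 were dim, with levels from -6.10 to -4.94 and from -8.18 to -4.97 over the 6 arrays. Of 8 genes tied to desiccation, 5 were higher and 3 lower. Beside lea-1, dur-1 differed by 0.76, the trehalose synthase gene tps-2 by 0.55 and the small heat shock gene hsp-12.3 by -0.64 (limma adjusted p = 0.65, 0.665 and 0.65). The hsp-12.3 arrays were the only ones on this list that did not overlap, with RB1035 lower, which held for 6.74% of all features.

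Genes whose level followed gpdh-1 most closely were sought among 13880 named genes well above background on all 6 arrays. The closest were ptr-12 (Pearson's r of 0.993 over 6 arrays), ndg-4 (0.991) and abu-9 (0.990), and 95 genes exceeded 0.9. They differed between strains by 0.35, 0.24 and 1.92 (limma adjusted p = 0.672, 0.742 and 0.26). For hmit-1.1 the closest were F40F4.7 (0.993), ppfr-1 (0.987) and C05B5.9 (0.987), and 174 genes exceeded 0.9. With 6 arrays in 2 strains, such values are reached by many genes.

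Markers of tissues and stages were set beside these results. The intestine list was nearly level, with 6 of 10 tested genes higher (4 on slide 1 alone and 8 on slide 2) and a median of 0.061, and its mean level was 2.88 to 3.21 in WTN2 and 2.97 to 3.21 in RB1035. The hypodermis list had 6 of 10 higher (5 on slide 1 alone and 8 on slide 2) and a median of 0.21, at -1.79 to -1.77 in WTN2 and -1.85 to -1.08 in RB1035. The excretory cell list had 8 of 10 higher and a median of 0.14, at -1.41 to -1.25 and -1.35 to -1.11. For these 3 tissues the strains overlapped. Of the glia list 3 genes were tested, with a median of 0.091, at -2.37 to -2.16 and -2.59 to -2.05. Pharynx markers had 14 of 14 genes higher, a median of 1.50 and mean levels of -4.37 to -2.29 in WTN2 and -2.44 to -0.50 in RB1035. One of them, phat-5, passed the test (limma adjusted p = 3.4e-05), at -8.55 to -7.82 in WTN2 and -2.32 to -2.23 in RB1035. In WTN2 it was not well above background on any of the 3 arrays. It thus met the detection filter through the RB1035 arrays alone, and the size of its difference rests on a background level in WTN2. Oocyte markers had 13 of 14 higher (median 0.50; 2.14 to 2.77 and 2.74 to 3.27), but the slides differed: 9 of 14 were lower on slide 1 and 14 of 14 higher on slide 2. Sperm markers had 11 of 14 lower (median -0.48; 0.81 to 1.11 and 0.56 to 0.64), with 11 lower on slide 1 and 10 on slide 2. The 3 tested embryonic genes had a median of 0.40, at -5.23 to -4.92 and -5.35 to -4.47. The part of pharynx and germline markers in the differences of gpdh-1, the pgph genes and the hmit genes was not tested.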

How the data were processed

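Per the file headers, the authors extracted spot intensity values with Agilent Feature Extraction 10.7.3.1 from 1-colour arrays designed on build ce4 (WS170), and the processed signal is corrected for background and for surface trends within an array, but not between arrays. The multiplicative surface has a recorded size of 0 on RB1035 replicate 2. The deposited files also hold flags, coded as other values, for spots well above background, outliers and saturation (0 saturated). The deposited series table holds log2 levels with medians of 7.61 on every array. The sources used here do not name its normalization. Its probes follow the scanner's median signal (Spearman's rho of 0.994 to 0.998 across probes), so its direction is that of a level, while any centring of arrays stays unknown.

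Control spots (1417 of 45220) and probes with an outlier flag (149 of 43603) were left out. Levels (log2 processed signal, less the 75th percentile on that array) were fitted with lmFit and eBayes of limma 3.58.1 under R 4.3.3. Two-sided p-values were adjusted by Benjamini-Hochberg across 19817 features, namely the brightest probe of each gene and all unnamed probes, if 3 or more of the 6 arrays had them well above background. Genes were named through WBcel235, by sequence name for 30975 probes and by accession for 3342. No coordinates are given, because the builds differ. Titles gave the strain and replicate of each sample.

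The members and lists were chosen with earlier results of these data known. The naming rule takes all 9 members, flcn-1, the 3 genes of each pathway list with the smallest p (and all of the glycerol enzymes), and the 3 genes most like gpdh-1 and hmit-1.1. Other genes named (inos-1, elt-2, elt-3 and neighbours of the members) were chosen after their values were seen. On simulated data of this comparison (19817 features, 200 changed) the fit recovered 1.19% of changes set to 2-fold, 44.9% of those at 4-fold and 78.3% of those at 8-fold. The simulation used independent normal noise with each feature's observed SD and no slide effects, so these shares may not hold for the arrays themselves. Alternatives were normexp (offset 50), quantile normalization, median centring, other filters, the mean of probes, the deposited table, slide and replicate blocks, single slides and leaving out each array. Precision is limited by 3 arrays per strain.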

Additional observations from a re-analysis of the deposited data

How the results depend on the processing

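None of the 132 tested alternatives of a member passed an adjusted p of 0.05. The adjusted p of gpdh-1 ranged from 0.255 to 0.988 and its difference from 1.01 to 1.24. Features called numbered 20, against 11 with normexp and 1 when detection was required on all 6 arrays, which leaves out probes not detected in a strain; leaving out 1 array gave 17 to 20. The median of the members ranged from 0.33 (without WTN2 replicate 3) to 0.91 on leaving out 1 array. Within slide 1 the direction turned for hmit-1.3 (0.67), osm-11 (-0.67), lea-1 (-0.27), aldo-1 (-0.076) and aldo-2 (-0.57). The shift of hmit-1.1 against hmit-1.2 was -0.11 within slide 2 and -0.39 to 1.00 on leaving out 1 array (-0.39 without WTN2 replicate 1, -0.22 without RB1035 replicate 2). Leaving out 1 array gave -0.82 to 0.19 for hmit-1.3, -0.036 to 0.45 for osm-7 and -0.16 to 0.10 for tpi-1, which was 0.080 without RB1035 replicate 1 and 0.11 with the mean of its probes. The second osm-11 probe gave -0.46. Settings applied to the glycerol enzymes and to single probes were chosen after seeing the data: the median of the glycerol enzymes was 0.82 to 1.02 over all of them. The cause of these changes was not tested.

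With the replicate number as a block 30 features were called, and gpdh-1 differed by 1.13 (adjusted p = 0.451). Deviations of same-numbered arrays correlated at 0.12, 0.12 and 0.02, so the numbers were not taken to pair the samples. With this block no member passed.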

Other observations

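The nearest tested gene on each side of each member in the gene order of assembly WBcel235 was examined after the data were seen. In some cases genes that were not tested lie between. Of 14 neighbours that are not themselves members, 9 were higher and 5 lower in RB1035, and none passed the test over all features. The potassium channel gene slo-1, 3 places before hmit-1.1, differed by 0.99 (limma adjusted p = 0.65). The gene ints-5, 5 places after hmit-1.2, differed by 0.61 (limma adjusted p = 0.673). Around gpdh-1, F47G4.4, 5 places before it, differed by 0.60, and gadr-6, directly after it, by 0.32. The gadr-6 arrays did not overlap, at -1.35 to -0.741 in WTN2 and -0.738 to -0.585 in RB1035, a gap far smaller than the spread within WTN2, and such separation with RB1035 higher held for 5.22% of all features.

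A scatter like that of hmit-1.3 among the RB1035 arrays was seen in its neighbour mrpl-35, a gene of the mitochondrial ribosome. The level of mrpl-35 was 3.49, 2.88 and 2.88 in WTN2 and 3.39, 1.37 and 2.07 in RB1035. In both genes RB1035 replicate 2 was the lowest array and replicate 3 the next, and over the 6 arrays they correlated at a Pearson's r of 0.886. The neighbour on the other side, pitp-1, went the opposite way (r of -0.81). How many genes elsewhere follow hmit-1.3 as closely as mrpl-35 was not examined. Beside osm-7, T05D4.5 was lower on all RB1035 arrays than on any WTN2 array (6.74% of all features), at -0.0064, 0.67 and 0.58 in WTN2 and -0.35, -0.72 and -0.11 in RB1035 (difference -0.81, limma adjusted p = 0.65).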
